A study of Mus musculus with 19 samples.

Results

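The acute phase plasma protein genes encode secreted proteins whose plasma levels are known to rise during inflammation in mice or, for Saa4 in particular, belong to the same families. The group was defined by name, as Saa1, Saa2, Saa3, Saa4, Orm1, Orm2, Hp, Hpx, Lcn2 and Apcs in the count table of the Raly RNA-seq experiment. All 10 of these symbols were among the 24054 genes of the table, and all 10 passed the filter on low values that left 11580 genes for testing. The rule uses their names and no measured value.

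Liver RNA was sequenced from chow-fed C57BL/6 mice that all carried Raly flox/flox, in which loxP sites flank part of the gene for the RNA-binding protein RALY. Mice that received AAV8.TBG.Cre are L-RalyKO (n = 3), and mice that received AAV8.TBG.GFP are controls (n = 3). The virus was given 4 weeks before the livers were taken, and the TBG promoter restricts Cre or GFP to hepatocytes, so the gene is kept in the other cells of the liver. The labels call the controls wild type although they are floxed, virus-treated littermates by the study's methods, which used males unless otherwise specified, and the age of these mice is not given in the sources used here. The labels name no inflammatory stimulus. In whole liver, fewer cells of a type and less RNA per cell cannot be told apart.

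The acute phase response is the change in hepatic secretion that follows infection or injury. Interleukin-6 acts through its receptor, the shared subunit gp130, JAK kinases and STAT3, interleukin-1 and tumor necrosis factor act through NF-kB, and C/EBP factors and glucocorticoids add to the response. Serum amyloid A proteins and alpha-1-acid glycoprotein are strongly induced in mice, whereas albumin and other plasma proteins decline and are called negative acute phase proteins.

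Recovered reads per liver were between 28302983 and 38052705. Values are read counts per gene scaled to the effective size of each library, called scaled read counts below, and 3 reads correspond to a value between 0.0789 and 0.105. Raly itself was 6.34, 6.61 and 7.39 in the L-RalyKO livers and 50.1, 48.6 and 46.8 in the controls. The groups did not overlap and Raly fell by 2.67 on the log2 scale (SE 0.0689, limma adjusted p = 6.92e-07), which matched the labels. Control 1 stood apart from the other controls, with a chi-square per degree of freedom over genes of 71.1 and 84.3 against them, compared with 18.2 between controls 2 and 3 and 12.6 to 27.4 among the L-RalyKO livers. Values without that library are given where it matters.

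The Saa genes lie together in NCBIM37 (mm9) within 42.3 kb of chromosome 7. Saa3 (ENSMUSG00000040026.7) spans chr7:53967368-53971046 on the - strand, Saa4 (ENSMUSG00000040017.7) chr7:53983387-53987913 on the - strand, Saa1 (ENSMUSG00000074115.3) chr7:53995871-53998350 on the - strand and Saa2 (ENSMUSG00000057465.4) chr7:54007203-54009684 on the + strand, and each has 4 exons. Orm1 (ENSMUSG00000039196.2), at chr4:63005594-63009197, and Orm2 (ENSMUSG00000061540.3), at chr4:63023483-63026912, are both on the + strand, have 6 exons each and lie within 21.3 kb. The remaining members are single genes. Hp (ENSMUSG00000031722.9) is at chr8:112099030-112103072, Hpx (ENSMUSG00000030895.8) at chr7:112740127-112748630, Lcn2 (ENSMUSG00000026822.9) at chr2:32240153-32243317 and Apcs (ENSMUSG00000026542.5) at chr1:174824093-174825185, all on the - strand. No other annotated gene overlapped any of the 10.

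Saa1 and Saa2 are close copies, and how far reads can separate them bears on their values. Their coding sequences are 369 bases each and differ at 18 positions (95.1% identical), with a longest identical run of 73 bases. The following stretch, bases 90 to 149 of each coding sequence, holds 7 of these differences, shown in capitals.
Saa1: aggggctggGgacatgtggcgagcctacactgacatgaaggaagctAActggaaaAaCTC
Saa2: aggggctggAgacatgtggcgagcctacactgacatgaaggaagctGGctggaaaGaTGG
Of the 50-base words of the Saa1 transcript 9.17% also occur in Saa2, whereas 0% of its 150-base words, the length of 1 sequenced read, occur there even when 2 mismatches are allowed. Orm1 and Orm2 differ at 63 of 624 coding bases (89.9% identical), and 17 of these differences lie in bases 138 to 197, again in capitals.
Orm1: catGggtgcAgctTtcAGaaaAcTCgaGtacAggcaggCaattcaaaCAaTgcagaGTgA
Orm2: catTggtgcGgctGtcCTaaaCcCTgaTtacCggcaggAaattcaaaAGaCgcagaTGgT
Of the 150-base words of Orm1, 0% occur exactly in Orm2 and 2.56% do so within 2 mismatches. How the authors' counting treated reads that fit more than 1 gene is not given in the sources used here, so the division of reads within each pair is uncertain and the sums of the pairs are given too.

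Promoters of Saa1 and Saa2 are shown because these neighbours have nearly the same upstream sequence, and of the pair Saa1 alone passed the test. A test of the difference between them is given with their sum below. The RefSeq sequences of build GRCm38.p6 run from 250 bases before to 50 after the gene start, and capitals mark each match to the C/EBP letters TTNNGNAA on either strand. The Saa1 window is chr7:46742931-46743230 on the - strand and the Saa2 window chr7:46751583-46751882 on the + strand.
Saa1: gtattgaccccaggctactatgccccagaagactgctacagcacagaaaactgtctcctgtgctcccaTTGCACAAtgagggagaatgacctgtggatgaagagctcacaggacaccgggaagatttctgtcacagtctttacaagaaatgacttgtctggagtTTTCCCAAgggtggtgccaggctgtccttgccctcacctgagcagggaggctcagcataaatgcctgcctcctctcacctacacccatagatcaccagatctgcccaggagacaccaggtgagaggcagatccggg
Saa2: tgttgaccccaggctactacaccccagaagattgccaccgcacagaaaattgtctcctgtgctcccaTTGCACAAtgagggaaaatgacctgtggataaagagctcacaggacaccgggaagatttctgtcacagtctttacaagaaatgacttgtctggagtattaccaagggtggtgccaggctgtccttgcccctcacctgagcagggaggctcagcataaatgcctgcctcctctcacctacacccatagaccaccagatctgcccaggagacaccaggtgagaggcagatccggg
These windows are identical at 287 of 299 aligned bases (96.0%). The Saa1 window holds 2 matches, beginning at -182 and -86, and the Saa2 window holds 1, at -183. Among 8 members with a promoter sequence, 7 held a C/EBP match (all but Apcs), and 40.7% of all 32851 promoters of the same length did. The STAT letters TTCNNNGAA were found in Apcs only (8.30% of all promoters), the glucocorticoid receptor letters ACANNNTGT in Lcn2 only (6.85%), and the NF-kB letters GGGANNNNCC (20.7%) and HNF1 letters, GTTAAT, any base and ATTA (0.14%), in none of the 8. Both strands were searched, and overlapping matches of the same motif on both strands were counted separately. A match describes letters and is not a measured binding site.

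Hp and Hpx were by far the most abundant members, and Saa3 and Lcn2 the least. In controls the scaled read count per kb of transcript was 1608 ± 44.7 (SD, n = 3) for Hp and 1539 ± 99.5 for Hpx, whose ranges over the 6 livers overlapped. Orm1 followed at 401 ± 11.1, then Saa4 at 125 ± 9.72, Apcs at 44.3 ± 7.97 and Saa1 at 21.1 ± 4.62. Saa2 was at 11.3 ± 3.47, Orm2 at 4.80 ± 1.31, Lcn2 at 2.48 ± 0.164 and Saa3 at 2.40 ± 1.07. Apart from Hp with Hpx, neighbours in this order overlapped over the 6 livers only for Apcs with Saa1 and Lcn2 with Saa3. Saa4, the constitutively made serum amyloid A, was thus above the inducible Saa1 and Saa2 per length in every liver.

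**Figure D1:**
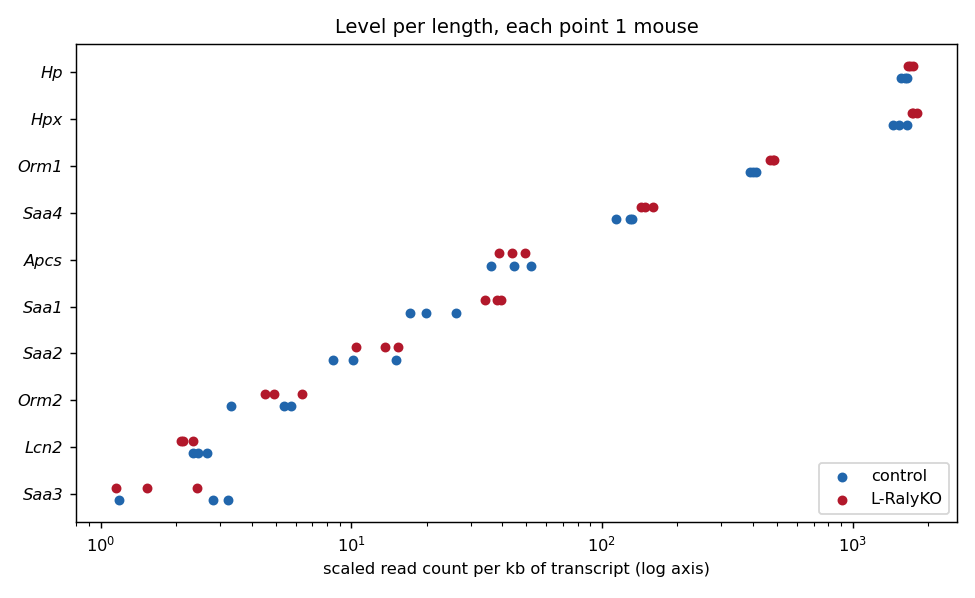
Scaled read count per kb of transcript on a log axis for each of the 10 genes, 1 point per liver, blue for controls and red for L-RalyKO. Hp and Hpx lie above all other genes in every liver, and the Saa1 points of the L-RalyKO livers reach those of Apcs.

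Of the 10 genes, Saa1 and Orm1 rose in L-RalyKO liver at an adjusted p under 0.05, none fell, and 8 were not called by limma. Among all genes tested 6.55% were called (758 of 11580) and 3.36% were called higher. Groups did not overlap for 6 members, 5 with every L-RalyKO liver above every control and 1 with every one below, compared with 28.1% of all genes in either direction and 14.4% with L-RalyKO above. At an unadjusted p under 0.05 there were 4 members (Saa1, Saa4, Orm1, Hpx), beside 22.7% of all genes (2632 of 11580). EdgeR's quasi-likelihood test called 3 members and 6.68% of all genes (774), and DESeq2 called 4 members and 9.36% of all genes (1084). The median log2 fold change of the members was 0.16, beside 0.0044 over all genes. The summed scaled read count of the 10 genes was 5616, 5598 and 5695 in L-RalyKO and 4875, 5040 and 5291 in controls, and it was mostly Hp and Hpx.

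**Figure D2:**
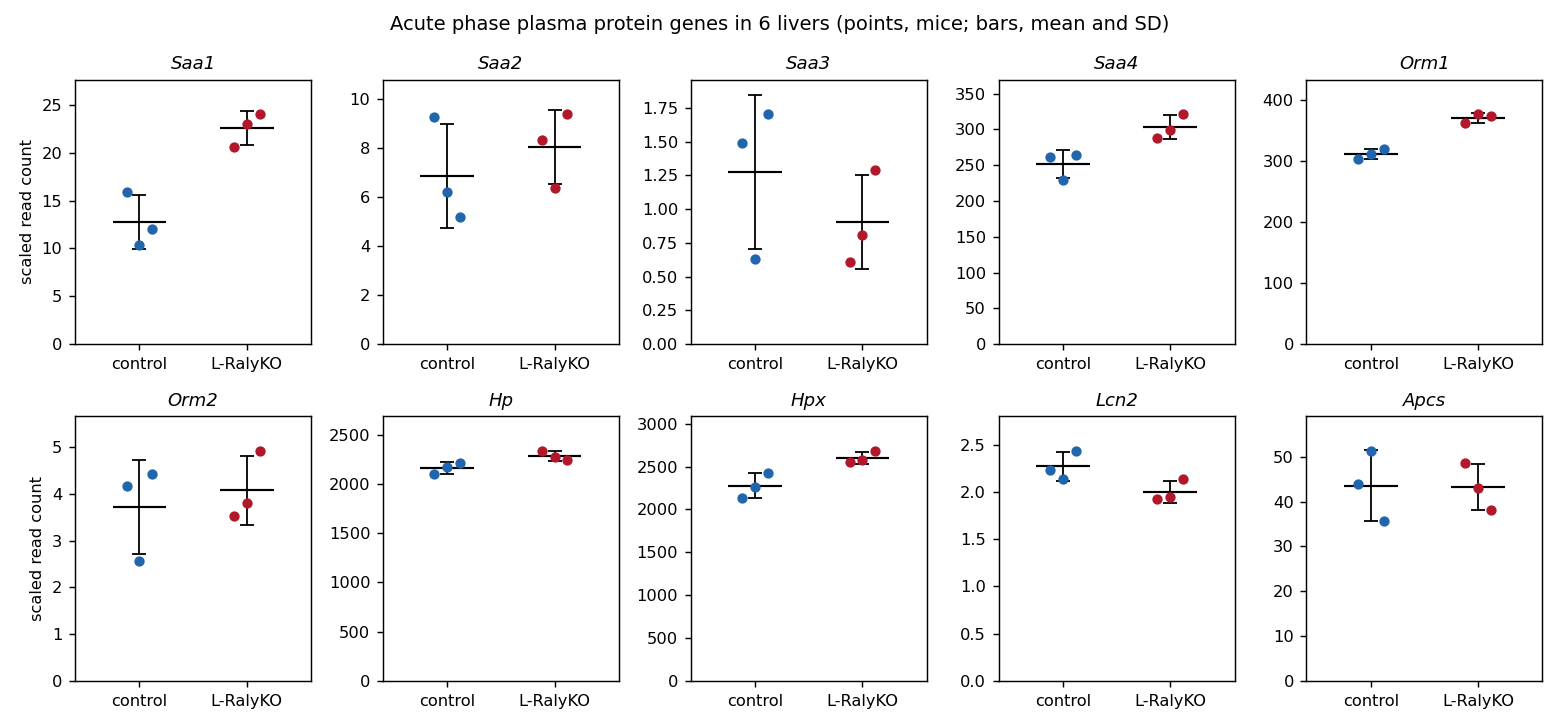
Scaled read count of each of the 10 genes in 3 control (blue) and 3 L-RalyKO (red) livers, with axes from 0. Points are mice and bars are the mean and SD; Saa1, Saa4, Orm1, Hp and Hpx have every L-RalyKO liver above every control, Lcn2 has every one below, and the groups of the other members overlap.

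Saa1, a serum amyloid A carried on high-density lipoprotein and made by hepatocytes, had the largest log2 fold change of the group. It was at 20.6, 23.0 and 24.0 in L-RalyKO livers and at 15.9, 10.4 and 12.03 in controls. Every L-RalyKO liver was above every control. The means were 22.6 ± 1.77 and 12.8 ± 2.80 (SD, n = 3), a ratio of 1.77, and the log2 fold change was 0.79 (SE 0.132, 95% interval 0.49 to 1.09, limma adjusted p = 0.0118). The call held in all 15 alternative settings, with log2 fold changes between 0.67 and 0.95 and adjusted p values between 4.21e-07 and 0.0443. Without control 1, the highest control, the log2 fold change was 0.95 (limma adjusted p = 0.00432).

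Saa2, the other inducible hepatic serum amyloid A, was at 8.32, 6.38 and 9.37 in L-RalyKO livers and at 9.24, 6.21 and 5.16 in controls. The groups overlapped because control 1 was nearly as high as the highest L-RalyKO liver. The log2 fold change was 0.22 (SE 0.19, 95% interval -0.22 to 0.65, limma adjusted p = 0.548), and it was 0.42 (adjusted p = 0.198) without control 1 and 0.06 (adjusted p = 0.892) without control 3, the limits over the 15 alternatives. It was 0.11 without L-RalyKO 3 and 0.35 without L-RalyKO 2. The main interval includes the log2 fold change given for Orm1 below and not that of Saa1. It overlaps the 95% interval of Saa1 (0.49 to 1.09), so this is not a test of a difference between the 2 genes. The sum of Saa1 and Saa2 was 28.9, 29.4 and 33.4 in L-RalyKO livers and 25.1, 16.6 and 17.2 in controls. These groups did not overlap, the ratio of means was 1.56, and the two-sided exact permutation p was 0.1, the smallest that 3 against 3 allows. Saa1 made up 71.2%, 78.3% and 71.9% of that sum in L-RalyKO livers and 63.2%, 62.7% and 70.0% in controls, which did not overlap either (exact permutation p = 0.1).

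Saa4 was at 289, 300 and 321 in L-RalyKO livers and at 262, 230 and 265 in controls. Every L-RalyKO liver was above every control, with a log2 fold change of 0.27 (SE 0.0683, 95% interval 0.11 to 0.42). It did not pass the threshold (limma adjusted p = 0.0552), but it did with edgeR (0.0429), with DESeq2 (0.0105) and with limma without control 3 (0.0498), and over all 15 alternatives the adjusted p was between 0.0105 and 0.141. Saa3, which in mice is made mainly outside hepatocytes, by macrophages and adipocytes among others, was at 0.611, 0.812 and 1.29 in L-RalyKO livers and at 1.49, 0.631 and 1.70 in controls. These values rest on 18 to 63 reads per liver, and the groups overlapped. The log2 fold change of Saa3 was -0.24 (95% interval -0.72 to 0.24, limma adjusted p = 0.552). It ranged from -0.13 without L-RalyKO 1 to -0.46 without control 2, was -0.16 without control 1 and -0.38 without L-RalyKO 3, and was -0.51 with edgeR, without a call in any of 14 alternatives (adjusted p values between 0.179 and 0.832).

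Orm1, which encodes the plasma carrier alpha-1-acid glycoprotein, had narrow groups. It was at 361, 376 and 373 in L-RalyKO livers and at 303, 311 and 320 in controls, so the groups did not overlap. The ratio of means was 1.19 and the log2 fold change 0.25 (SE 0.0461, 95% interval 0.14 to 0.35, limma adjusted p = 0.0173). The size was much the same in every setting (0.22 to 0.27), but leaving out L-RalyKO 1, 2 or 3 or control 1 or 2 ended the call (limma adjusted p = 0.0525, 0.0581, 0.0518, 0.0607 and 0.0520), and leaving out control 3 did not (0.0208). Orm2, its close copy, was at 3.52, 3.80 and 4.92 in L-RalyKO livers and at 4.17, 2.56 and 4.43 in controls. Those groups overlapped, with a log2 fold change of 0.12 (95% interval -0.27 to 0.52, limma adjusted p = 0.736) that turned to -0.07 without control 2. Since Orm2 was so low, the sum of both followed Orm1, with a ratio of means of 1.19.

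Hp encodes haptoglobin, which binds free hemoglobin. It was at 2333, 2271 and 2239 in L-RalyKO livers and at 2096, 2170 and 2215 in controls. The groups did not overlap but came close, and the log2 fold change was 0.08 (95% interval -0.05 to 0.21, limma adjusted p = 0.474). Hpx encodes hemopexin, which binds free heme, and it was at 2549, 2572 and 2682 in L-RalyKO livers and at 2138, 2256 and 2431 in controls. Every L-RalyKO liver was above every control, and the log2 fold change was 0.19 (SE 0.0689, 95% interval 0.04 to 0.35). Hpx was not called by limma (adjusted p = 0.135) and passed with DESeq2 alone among the 15 alternatives (0.0458), which ranged from 0.0458 to 0.309.

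Lcn2, lipocalin-2, sequesters bacterial siderophores and is among the genes most readily induced in inflamed mouse liver. It was at 1.92, 1.94 and 2.13 in L-RalyKO livers and at 2.24, 2.14 and 2.43 in controls, from 61 to 90 reads per liver. All L-RalyKO livers were below all controls, by a small margin, with a log2 fold change of -0.12 (95% interval -0.34 to 0.10, limma adjusted p = 0.491). Apcs, serum amyloid P component, is a pentraxin and in mice an acute phase protein. It was at 48.6, 43.1 and 38.2 in L-RalyKO livers and at 43.8, 51.3 and 35.6 in controls, and the groups overlapped throughout. Its log2 fold change was -0.0013 (95% interval -0.30 to 0.29, limma adjusted p = 0.997), and its sign changed with single libraries left out.

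**Figure D3:**
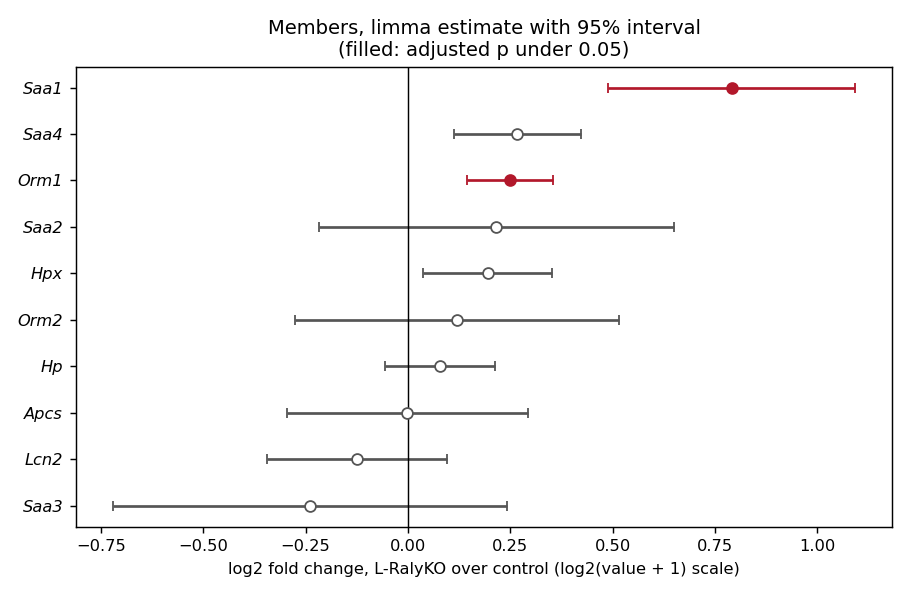
Log2 fold change of each of the 10 genes, L-RalyKO over control on the log2(value + 1) scale, with the 95% interval of limma; filled points have an adjusted p under 0.05. Saa1 at 0.79 and Orm1 at 0.25 are filled, and the intervals of Saa4 and Hpx also lie above 0.

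Other genes known to rise in the acute phase were compared in the same fit. Of 25 listed, 23 were tested, 3 were called higher and none lower (median log2 fold change 0.08), beside 3.36% of all genes called higher, and 6 had an unadjusted p under 0.05, a share near the 22.7% of all genes. The 3 were the metal-binding metallothioneins Mt1 and Mt2 and the protease inhibitor Serpina3n. Mt1 was at 157, 125 and 184 in L-RalyKO livers and at 71.6, 75.0 and 81.8 in controls, a log2 fold change of 1.003 (SE 0.122, limma adjusted p = 0.00343), called in all 15 alternatives. Mt2 was at 64.7, 50.8 and 109 against 32.7, 34.3 and 30.5, a log2 fold change of 1.11 (SE 0.225, limma adjusted p = 0.025). Serpina3n was at 404, 395 and 369 against 333, 328 and 342, a log2 fold change of 0.22 (SE 0.0514, limma adjusted p = 0.0429). None of the groups of these 3 genes overlapped, but the call of Mt2 held in 8 alternatives and that of Serpina3n in 6. For Mt2 it ended without L-RalyKO 1 (0.0612), control 1 (0.0762), control 2 (0.0561) or control 3 (0.0526), and with edgeR (0.119). For Serpina3n it ended without L-RalyKO 1 (0.151), L-RalyKO 2 (0.116), control 1 (0.114), control 2 (0.112) or control 3 (0.0507), and adjusted p values over alternatives were 0.0077 to 0.151.

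Crp, C-reactive protein, was at 316, 318 and 311 in L-RalyKO livers and at 300.3, 303 and 328 in controls, which overlapped (log2 fold change 0.02, limma adjusted p = 0.836). Lbp, the lipopolysaccharide-binding protein, overlapped as well, between 81.9 and 88.1 against 80.9 to 94.9 (log2 fold change -0.01, limma adjusted p = 0.946). Over the alternatives Crp ran from -0.01 to 0.06 and Lbp from -0.05 to 0.06, without a call.

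Genes of plasma proteins that fall in the acute phase were a list of 12, all tested. None was called lower and Serpina6, corticosteroid-binding globulin, was called higher (log2 fold change 0.35, SE 0.0806, limma adjusted p = 0.0411). That is 1 gene of 12, beside 6.55% of all genes called. At an unadjusted p under 0.05 there were 5 (22.7% of all genes), and groups did not overlap for 6 (28.1% of all genes). Serpina6 was at 239, 215 and 223 in L-RalyKO livers and at 160, 199 and 175 in controls, without overlap. The Serpina6 call ended without L-RalyKO 1 (0.134), L-RalyKO 2 (0.0717), L-RalyKO 3 (0.0932), control 1 (0.108) or control 3 (0.0785), and it held in 7 of 15 alternatives, from 0.00223 to 0.134. Alb, albumin, was at 70091, 70785 and 70819 in L-RalyKO livers and at 63858, 71897 and 69011 in controls, with overlap (log2 fold change 0.05, limma adjusted p = 0.889). The median of this list was 0.09, with a positive sign in 11 of 12 genes (5925 of 11580 over all genes), and that of 8 hepatocyte markers was 0.09, with a positive sign in 7, but Alb, Ttr and Apoa1 are in both lists. The scaled library totals were 1029269, 1005550 and 1001269 in L-RalyKO and 968681, 992420 and 1003785 in controls, and the part of these differences in the values of Saa4, Orm1 and Hpx was not tested beyond scaling to total reads, under which the log2 fold change was 0.22 for Orm1 (limma adjusted p = 0.0330), 0.23 for Saa4 (0.0977), 0.16 for Hpx (0.194) and 0.04 for Hp (0.703). Under that scaling the calls of Serpina3n (0.0611) and Stat3 (0.0528) were lost.

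Transcripts of the cytokines that start the response were scarce. Of 10 listed, 3 were tested. While 369 of all 11580 genes were called lower (6.55% in either direction), 1 of the 3 was, namely Il1a, interleukin-1 alpha. It was at 1.83, 2.64 and 2.18 in L-RalyKO livers and at 3.79, 3.30 and 4.62 in controls, without overlap, and fell by 0.61 on the log2 scale (SE 0.135, limma adjusted p = 0.0353). The Il1a call ended without L-RalyKO 1 (0.112), L-RalyKO 3 (0.0878), control 1 (0.0943) or control 3 (0.0768), and it held in 9 of 15 alternatives, from 0.00445 to 0.112. Il1b, interleukin-1 beta, was at 0.814, 1.33 and 0.579 against 0.775, 1.82 and 1.49, which overlapped (log2 fold change -0.30, limma adjusted p = 0.431). The log2 fold change of Il1b ran from -0.59 to -0.17 over 14 alternatives, without a call. With a mean of 0.909 in L-RalyKO livers and 1.36 in controls, Il1b passed the filter only through the controls. Il6 had 0 to 2 reads per liver and Tnf 0 to 6, and both were under the filter and could not be compared at this depth.

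The receptor list, with cytokine, glucocorticoid and Toll-like receptors and the adaptor Myd88, held 14 genes, all tested. Among them 3 were called higher (Il1r1, Il6ra, Lifr) and Tnfrsf1b lower, beside 6.55% of all genes called in either direction. The median log2 fold change was 0.01, and 6 had an unadjusted p under 0.05, beside 22.7% of all genes. Il1r1, the signalling receptor of interleukin-1, was at 80.9, 99.9 and 111 in L-RalyKO livers and at 31.1, 23.3 and 36.0 in controls. Its groups were far apart, with a log2 fold change of 1.67 (SE 0.158, 95% interval 1.31 to 2.03, limma adjusted p = 0.00123). Il6ra, the ligand-binding subunit of the interleukin-6 receptor, was at 102, 81.6 and 97.4 against 53.5, 50.9 and 63.4. Its groups did not overlap either, with a log2 fold change of 0.74 (SE 0.102, 95% interval 0.50 to 0.97, limma adjusted p = 0.00566). Both calls held in all 15 alternatives, with adjusted p values up to 0.0118 for Il1r1 and 0.0263 for Il6ra. Il6st, which encodes gp130, overlapped between groups at 127 to 146 and 128 to 145 (log2 fold change 0.01, limma adjusted p = 0.935). Its log2 fold change ran from -0.03 to 0.06 over the alternatives, without a call.

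Lifr, the receptor of leukemia inhibitory factor, was at 269, 270.5 and 320 in L-RalyKO livers and at 175, 211 and 238 in controls. The groups did not overlap (log2 fold change 0.47, SE 0.111, limma adjusted p = 0.0445), and the call ended without each mouse except control 3 (0.0863 to 0.117) and with edgeR (0.0757), and it held in 7 of 15 alternatives. Tnfrsf1b, the second receptor of tumor necrosis factor, was at 47.8, 47.6 and 72.4 in L-RalyKO livers and at 82.1, 88.9 and 81.4 in controls. L-RalyKO 3 came close to the controls without overlap, and Tnfrsf1b fell by 0.61 on the log2 scale (SE 0.144, limma adjusted p = 0.0436). That call ended without each mouse except L-RalyKO 3 (0.069 to 0.134) and with edgeR (0.130), it was at 0.00136 without L-RalyKO 3, and it held in 7 of 15 alternatives.

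**Figure D4:**
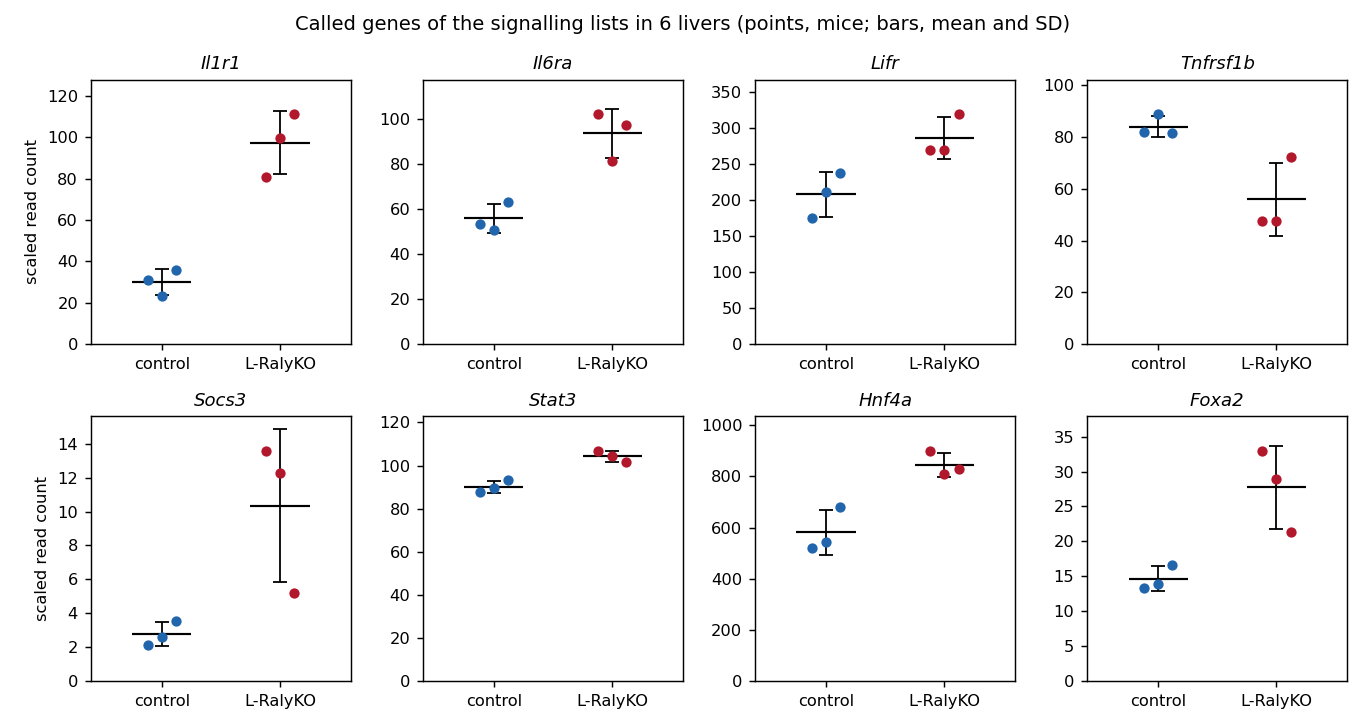
Scaled read count of the called receptor, signal and transcription factor genes in 3 control (blue) and 3 L-RalyKO (red) livers, with axes from 0; points are mice and bars are the mean and SD. Il1r1 is between 23.3 and 36.0 in controls and above 80 in L-RalyKO, whereas L-RalyKO 3 lies near the controls for Socs3 and Tnfrsf1b.

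Of 21 listed transcription factors and signal proteins, 20 were tested, 4 were called higher and none lower (median log2 fold change 0.13), beside 3.36% of all genes called higher, and 10 had an unadjusted p under 0.05, beside 22.7% of all genes. Without control 1 limma called 0 of them. Socs3, the feedback inhibitor that STAT3 induces, was at 13.6, 12.3 and 5.18 in L-RalyKO livers and at 2.15, 2.59 and 3.54 in controls. L-RalyKO 3 was well below the other L-RalyKO livers and above the controls (log2 fold change 1.51, SE 0.297, limma adjusted p = 0.0214). The Socs3 call ended without L-RalyKO 1 (0.0721), L-RalyKO 2 (0.0744), control 1 (0.078) or control 2 (0.0588), and with edgeR (0.0845), the top of its range, which began at 0.00109, and it held in 8 of 15 alternatives. Stat3, the transcription factor of interleukin-6 signalling, was at 107, 104 and 102 against 87.5, 89.7 and 93.1. Those groups did not overlap (log2 fold change 0.21, SE 0.047, limma adjusted p = 0.0372), and the call ended without each mouse except control 3 (0.063 to 0.134), and it held in 7 of 15 alternatives.

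Hnf4a, a nuclear receptor that maintains hepatocyte genes, was at 900, 809 and 829 in L-RalyKO livers and at 520.3, 542 and 680.5 in controls. The groups did not overlap (log2 fold change 0.55, SE 0.0987, limma adjusted p = 0.0155), and the call ended without L-RalyKO 1 (0.0614), control 1 (0.051) or control 2 (0.0507). Foxa2, a pioneer factor of hepatocytes, was at 33.0, 28.9 and 21.3 against 13.3, 13.9 and 16.7. Here too no values overlapped (log2 fold change 0.86, SE 0.147, limma adjusted p = 0.0126), and only the fit without control 1 ended the call (0.0501) among the 15 alternatives.

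The C/EBP and NF-kB genes named by rule were not called in the main comparison. Cebpb was at 143 to 177 in L-RalyKO livers and 164 to 176 in controls (log2 fold change -0.06, limma adjusted p = 0.716). Cebpd was at 11.8 to 15.0 against 13.7 to 18.5, with overlap (log2 fold change -0.21, limma adjusted p = 0.341). Over the 15 alternatives Cebpb ran from -0.12 to 0.03 and Cebpd from -0.33 to -0.11, without a call. Nfkbia, the inhibitor that NF-kB induces, was at 43.9, 43.3 and 51.2 against 52.7, 52.9 and 55.3, all L-RalyKO livers below all controls, without passing the threshold (log2 fold change -0.22, limma adjusted p = 0.103). Nfkbia passed it in 1 of 15 alternatives, without L-RalyKO 3 (0.0328).

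**Figure D5:**
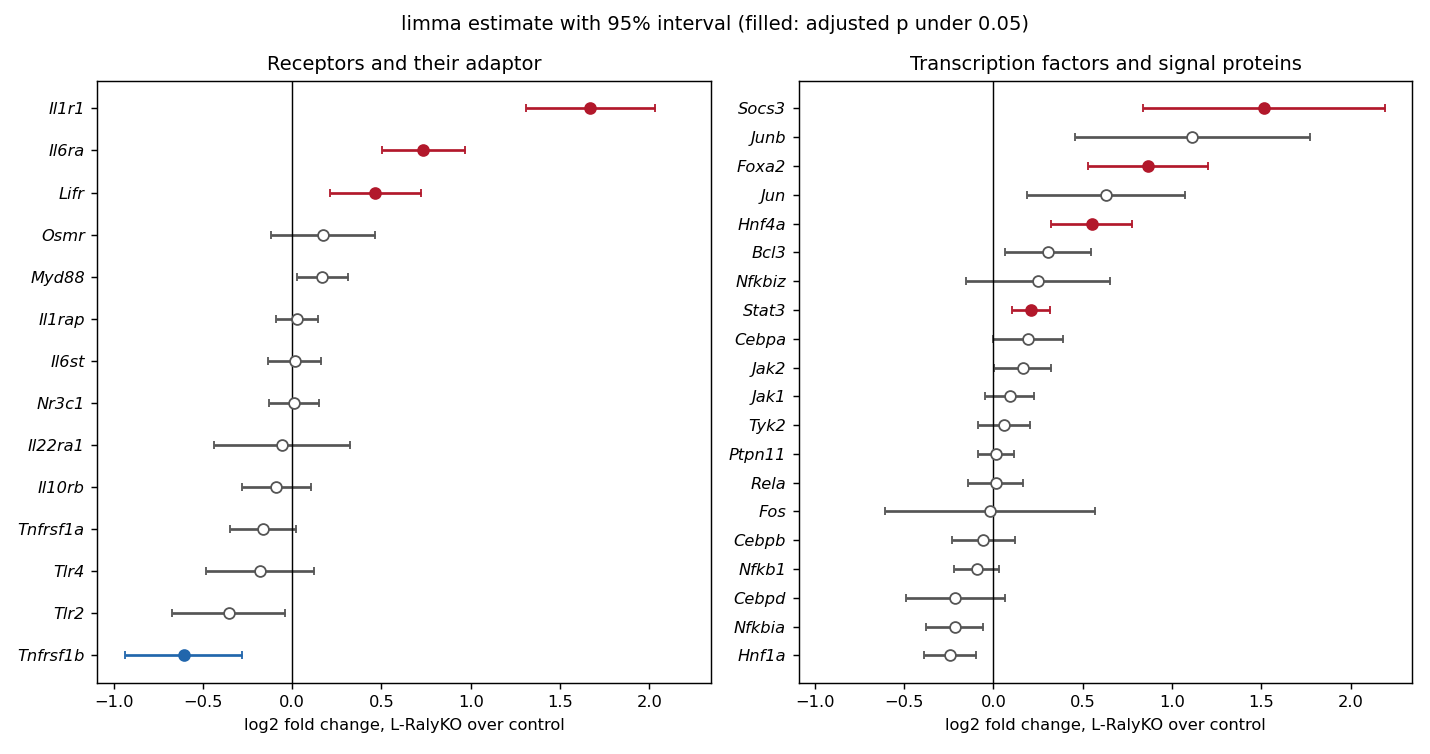
Log2 fold changes with 95% intervals of limma for 14 receptor genes with their adaptor (left) and 20 transcription factor and signal protein genes (right), L-RalyKO over control; filled points have an adjusted p under 0.05, red higher and blue lower. Il1r1 at 1.67 and Socs3 at 1.51 have the largest values of their panels, and Cebpb, Il6st and Nr3c1 lie near 0.

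Partners that bind or clear these plasma proteins, and enzymes of heme breakdown, were 10 genes, of which 7 were tested. Limma, edgeR and DESeq2 each called 0 of the 7, beside 6.55%, 6.68% and 9.36% of all genes. Each gave 1 gene an unadjusted p under 0.05, beside 22.7% of all genes with limma. Cd163, the macrophage receptor for haptoglobin with hemoglobin, was at 18.1 to 24.5 in L-RalyKO livers and 15.1 to 23.7 in controls (log2 fold change 0.08, limma adjusted p = 0.829). Lrp1, the hemopexin receptor, was at 1333 to 1505 against 1225 to 1381 (log2 fold change 0.10, limma adjusted p = 0.468). Hmox1, heme oxygenase 1, was at 11.4 to 15.7 against 12.04 to 15.1 (log2 fold change -0.01, limma adjusted p = 0.959). Over the alternatives Cd163 ran from -0.12 to 0.20, Hmox1 from -0.13 to 0.08 and Lrp1 from 0.04 to 0.14, without a call.

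Markers of the cells a liver sample can hold were compared because Saa3, Lcn2, Il1a and Tnfrsf1b are also made outside hepatocytes. Of 70 markers in 9 lists, 68 were in the table and 44 were tested. Over all lists limma called 1, edgeR 0 and DESeq2 4, beside 6.55%, 6.68% and 9.36% of all genes. The DESeq2 calls were 2 hepatocyte, 1 cholangiocyte and 1 adipocyte marker. Sox9, a cholangiocyte marker named here after its values were seen, had every L-RalyKO liver above every control. Its log2 fold change was 0.55 (limma adjusted p = 0.0774), and 3 of 15 alternatives called it. The summed level of 11 Kupffer cell and macrophage markers was 225 to 290 in L-RalyKO livers and 222 to 328 in controls. Limma, edgeR and DESeq2 each called 0 of the 11. Each also gave 0 an unadjusted p under 0.05, beside 22.7% of all genes with limma. Clec4f, the defining Kupffer cell marker, was at 53.4 to 68.6 against 53.9 to 76.9. Of neutrophil markers 2 of 10 were tested, their sum was 3.02 to 4.25 against 3.46 to 5.24, and the defining S100a8 and S100a9 were at most 0.245 and 0.553 in any liver.

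The summed level of 7 adipocyte markers was lower in every L-RalyKO liver than in every control. It was 10.7 to 12.2 against 15.4, 24.3 and 59.5, with control 1 highest. Of 3 tested genes 1 was called, beside 6.55% of all genes, and groups did not overlap for 2, beside 28.1% of all genes. Most of the sum in control 1 was Cidec, a lipid droplet protein named here after its values were seen, at 4.71, 6.30 and 5.58 in L-RalyKO livers and at 38.8, 7.54 and 14.1 in controls (limma adjusted p = 0.105). Fabp4 overlapped between groups, and the other markers apart from Cfd were at most 0.209 in any liver. The called gene, Cfd (adipsin), was at 0.204, 1.10 and 0.132 in L-RalyKO livers and at 12.6, 2.74 and 3.46 in controls, with control 1 highest (log2 fold change -2.10, limma adjusted p = 0.0318). With a mean of 0.479 in L-RalyKO livers and 6.27 in controls, Cfd passed the filter only through the controls, and its call adds no support for the list. The log2 fold change of Cfd was -3.52 with a pseudocount of 0.1, -3.73 with edgeR, -3.72 with DESeq2 and -3.96 with voom. Its call ended without L-RalyKO 1 (0.09996) or L-RalyKO 3 (0.0927) and with edgeR (0.149), voom (0.062), all genes with at least 1 read (0.0685) or no intensity trend (0.0589), so that it held in 9 of 15 alternatives from 0.0108 to 0.149, and without control 1 the log2 fold change of Cfd was -1.52 (limma adjusted p = 0.0285). The defining Adipoq had 0 to 4 reads per liver. The part of fat tissue in the differences of Saa3, Lcn2 and the cytokine genes was not tested.

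The 5 genes whose levels over the 6 livers were most like the sum of Saa1 and Saa2, by Pearson's r on the log2 scale, were Pole4 (0.999), Lsm6 (0.990), Grhl1 (0.987), Cdc42se1 (0.983) and Epb4.1l4b (0.983). Pole4 was at 20.3, 20.5 and 21.1 in L-RalyKO livers and at 19.9, 18.0 and 18.1 in controls, a far smaller range than that of Saa1. Among 11570 genes compared 108 had r above 0.9, and with 6 points from 2 groups this likeness is a description only.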

How the data were processed

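The livers of 3 L-RalyKO and 3 control mice measured by RNA-seq were used, and the ATAC-seq and ChIP-seq samples were not analysed here. The paper states a larger number of mice per group for its RNA-seq comparison than the 3 in the sample labels. Groups come from the sample labels, and columns were matched by the virus they name and the replicate number. The methods give paired 150-base reads from a stranded kit, alignment to mm9 with TopHat, and quantities from Cufflinks v2.0.2. How the deposited values were made is not given in the sources used here. The deposited numbers are a scaled signal, in which the reads of a gene were divided by the effective size of the library. In each column 100% of values were whole multiples of 1 read (tolerance 0.01 reads), and the scaling factors equalled TMM factors computed with edgeR, so no further scaling was applied.

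The design allowed for counts or normalized values, and the latter applied. Groups were compared with limma 3.58.1 (R 4.3.3), allowing an intensity trend, after log2 transformation with a pseudocount of 1. The 11580 genes whose mean reached 1 were tested, with Benjamini-Hochberg adjustment over all of them and calls at an adjusted p under 0.05. A fold change on that scale understates the change of low genes. P-values measure the spread between these mice, and 0.1 is the lowest p of an exact permutation test of 3 against 3. The number of mice limits the precision, and for low genes such as Saa3 and the cytokines the depth does too. Alternatives were edgeR 4.0.16 and DESeq2 1.42.0 on recovered reads, limma voom, total count scaling, a pseudocount of 0.1, other filters, no intensity trend, a replicate block and leaving out each mouse. The fits were tested on simulated data.

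The members and the gene lists were chosen with earlier results of these data known. Named were all members, up to 6 called genes of each list by smallest p, called markers, a set of central genes whatever their values, and the 5 genes most like Saa1 with Saa2. Gene positions and transcripts come from GENCODE vM1 on NCBIM37. The level per length used the protein-coding transcript. Promoters come from RefSeq (GRCm38.p6), matched by symbol for 8 of 10 members, without Orm1 and Hp.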

Additional observations from a re-analysis of the deposited data

How the results depend on the processing

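Of 283 values recomputed over up to 15 settings, 224 were taken as unchanged, and Saa1 kept its call in all 15. The sums of Saa1 with Saa2 and of Orm1 with Orm2 were recomputed over 7 settings each. Their exact permutation p cannot fall under 0.1, so these sums could change only in direction. For fold changes, unchanged means the same direction and side of the threshold. Counts of called genes have no direction, and for them it means only a rough likeness, since 1084 genes beside 758 were taken as unchanged. DESeq2, which called 1084 genes in place of 758, called 4 members (2 by limma) and 4 genes of the negative acute phase list (1 by limma). All of these members and list genes were called higher, and 0 lower. The 4 negative acute phase genes were Serpina6 (log2 fold change 0.34), Ahsg (0.27), Apoa1 (0.27) and Trf (0.21). DESeq2 moved Saa4 to 0.26 (adjusted p = 0.0105) and Hpx to 0.19 (0.0458) past the threshold. EdgeR moved Saa4 past it as well (0.27, 0.0429) and called 2 receptor genes in place of 4. Testing all genes with at least 1 read called 484 genes, 1 other positive acute phase gene, 0 negative ones, 0 cytokines and 2 receptors, and omitting the intensity trend left 1, 0 and 2 for the positive, negative and receptor lists. The near-zero value of Apcs turned to 0.0044 with voom.

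Leaving out each mouse gave 335 to 812 called genes, 1 to 3 members, 1 to 3 other positive, 0 to 2 negative, 0 to 1 cytokine, 2 to 3 receptor, 0 to 6 transcription factor and signal and 0 to 1 clearance genes. The log2 fold change ranged over these fits from 0.06 to 0.42 for Saa2, from -0.46 to -0.13 for Saa3, from 0.20 to 0.30 for Saa4, from 0.23 to 0.27 for Orm1, from -0.071 (without control 2) to 0.23 for Orm2 and from -0.14 to 0.12 for Apcs, which was 0.08 without L-RalyKO 3, 0.01 without control 1 and 0.12 without control 2. Saa3 passed the filter in all but 1 of the fits. Why calls and values changed between fits was not tested.

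The deviations of same-numbered mice correlated at 0.066, -0.024 and 0.020. The value for number 1 was the largest of all pairs, whereas L-RalyKO 2 correlated best with control 3 (0.060). With 3 mice per group these correlations cannot decide whether same-numbered mice share more than a number. With a replicate block 704 genes and 2 members (Saa1, Orm1) were called, and 0 genes of the negative list and 0 cytokines. The block ended the calls of Serpina6 (0.0725), Il1a (0.0607), Stat3 (0.0685) and Serpina3n (0.0693) and of no other called gene named. Scaling to total reads shifted the median log2 fold change of all genes to -0.03 and gave 324 higher and 469 lower calls, beside 389 and 369, and changed the direction of no member. The depth leaves Saa3, Orm2 and Lcn2 at 18 to 187 reads per liver and most cytokines unmeasured.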
